A study of Rattus norvegicus with 18 samples.

Results

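Haemoglobin and red cell genes were followed in rat knee synovium on 18 single-colour arrays. The group has 8 listed genes, found by the gene name that the array files give to each probe. By that name 7 genes were found, on 8 of the 41012 gene probes, which carry 35069 different names in all. No probe carries the name Hba-a2, so the alpha-globin probe whose accession list holds the Hba-a2 transcript stands for it. This made 8 genes on 9 probes.

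The rats were male Lewis rats, 6 to 8 weeks old, and each of the 6 groups has 3 arrays. The groups are AIA-hot-WTD, AIA-hot, AIA-cold-WTD, AIA-cold, AIA and control. AIA is adjuvant-induced arthritis, a rat model of inflammatory joint disease, and the cold and hot models are forms of it named by the labels. WTD is a Chinese herbal formula given to rats of both models, and the control rats were normal. How the cold and hot models were made and how WTD was dosed are not given in the sources used here. The treatment groups had 6 rats each per the labels, and which rats the arrays came from is not given. The titles of the WTD arrays also carry letters that nothing explains: in AIA-hot-WTD, D on replicate 1, G on replicate 2 and Z on replicate 3, and in AIA-cold-WTD, G on replicate 1 and Z on replicates 2 and 3. Prg4, which encodes the lubricin of the synovial lining, was well above background on all 18 arrays, at 6.48 to 8.02 on the log2 scale used below. Its presence does not show how much other tissue a sample held, and markers of other tissues are given below. The comparisons ask whether these genes differed between arthritic and normal joints, between the cold and hot models, and with WTD.

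Haemoglobin is a tetramer of alpha and beta globin chains, each holding a haem. Developing red cells make haem through Alas2, the erythroid form of the first and rate-limiting enzyme of haem synthesis, and Ahsp is a chaperone that binds free alpha globin. Slc4a1 encodes band 3, the anion exchanger of the red cell membrane, and Epb42 encodes protein 4.2, which ties band 3 to the membrane skeleton. Klf1 is the erythroid Krüppel-like factor that drives many of these genes by binding CACCC boxes, alongside Gata1, which binds GATA sites. Mature rat red cells in blood have lost their nucleus, and reticulocytes still carry globin and Alas2 mRNA, whereas Klf1 belongs to nucleated precursors, which reside mainly in bone marrow and spleen.

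The alpha-globin probe is shown because it decides what the Hba-a2 values mean. It lies at chr10:15559132-15559189 on the minus strand of rn4, per the files, in the coding part of the transcript, and its accession list names 3 RefSeq transcripts, those of Hba-a1, Hba-a2 and Hba-a3, which it cannot tell apart. The probe as given in the files reads:
Hba-a2 probe: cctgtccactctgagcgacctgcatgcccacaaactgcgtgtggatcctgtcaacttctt
The Hbb probe lies at chr1:161620134-161620193 and starts at the first base of its transcript. Its first 50 bases are identical to the start of the Hbb transcript in the RefSeq promoter table and differ at 6 bases from the best match in Hbb-b1 over 45 bases compared. The Hbb-b1 probe lies at chr1:161590680-161590739 near the other end of the transcript and lists 3 RefSeq transcripts, that of Hbb among them. So the Hbb-b1 values are a sum over beta-globin genes as far as the files tell. The other probes lie at chrX:39810353-39810412 (Alas2), chr10:91455352-91455411 (Slc4a1), chr1:187561567-187561626 (Ahsp), chr3:107806571-107806630 (Epb42) and chr19:24907094-24907153 (Klf1), all on rn4.

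Upstream sequence is shown for the 4 members whose window held a GATA motif or the string CCACCC, which are of the kinds that Gata1 and Klf1 are known to bind. It is the 250 bases before the start of each gene, from RefSeq on GRCr8, a newer build than that of the probes. The table held 6 of the 8 members. Capitals mark the GATA motif (AGATAA or TGATAA) and the string CCACCC, searched on both strands with no overlap between them. The shorter core CACCC was searched too and is not marked. Hbb held that core but not CCACCC, so its window is not shown. That choice of string does not mark Hbb as lacking a site of the Klf1 kind.
Hba-a2, chr10:15829139-15829388, minus strand: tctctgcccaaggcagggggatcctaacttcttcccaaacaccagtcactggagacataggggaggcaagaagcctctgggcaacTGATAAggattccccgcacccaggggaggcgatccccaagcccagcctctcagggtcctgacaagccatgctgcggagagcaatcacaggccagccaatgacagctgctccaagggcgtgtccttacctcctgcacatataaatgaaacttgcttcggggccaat
Hbb-b1, chr1:167643521-167643770, minus strand: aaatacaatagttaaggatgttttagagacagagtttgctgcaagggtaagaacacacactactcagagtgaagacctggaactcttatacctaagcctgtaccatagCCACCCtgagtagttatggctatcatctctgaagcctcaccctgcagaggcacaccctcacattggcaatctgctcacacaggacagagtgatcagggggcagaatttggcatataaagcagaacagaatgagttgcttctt
Alas2, chrX:22895200-22895449, plus strand: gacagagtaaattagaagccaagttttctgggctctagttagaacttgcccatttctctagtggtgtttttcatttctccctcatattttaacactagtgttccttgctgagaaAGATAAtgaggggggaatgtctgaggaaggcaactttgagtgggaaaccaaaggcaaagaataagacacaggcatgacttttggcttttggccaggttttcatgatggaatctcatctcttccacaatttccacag
Klf1, chr19:40158652-40158901, minus strand: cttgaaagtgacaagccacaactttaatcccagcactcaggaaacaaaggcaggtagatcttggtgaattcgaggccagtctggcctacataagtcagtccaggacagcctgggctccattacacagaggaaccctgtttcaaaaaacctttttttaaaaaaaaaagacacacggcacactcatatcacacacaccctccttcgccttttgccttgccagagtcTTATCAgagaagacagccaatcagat
AGATAA or TGATAA lay in 3 of the 6 windows (Hba-a2, Alas2 and Klf1), against 16.9% of 33469 promoters of the same length. The related forms AGATAG and TGATAG are in neither count. Epb42 held AGATAG and Hbb-b1 the reverse complement of TGATAG, so these windows are not without a GATA motif. CCACCC lay in 1 of the 6 (Hbb-b1), against 26.1% of them, and the core CACCC in 4 of the 6 (Hba-a2, Hbb, Hbb-b1 and Klf1), against 49.2% of them. Epb42 held none of the strings searched in this window. A match is a description of these letters only.

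Every value below is a log2 intensity relative to the 75th percentile of its array, so that 1 unit is a doubling. Control replicate 1 stood apart from the other 17 arrays: its 75th percentile was 68.9 intensity units, against 201 to 331 on the others, and 43.3% of its probes were well above background, against 56.4% to 76.6%. Its dimmest signal still well above background was -2.62, against -6.36 to -3.90 on the others. Slc4a1, Epb42 and Klf1 read -2.59, -3.13 and -2.71 there, none well above background. The array stays in every control mean, so these dim readings enter as if they were measured levels. The 18 arrays lay on 5 slides. All 3 controls and AIA replicate 1 shared slide 1, the other AIA arrays and AIA-hot replicates 1 and 2 shared slide 2, AIA-hot replicate 3 and all AIA-hot-WTD arrays shared slide 3, all AIA-cold arrays and AIA-cold-WTD replicate 1 shared slide 4, and the other AIA-cold-WTD arrays lay on slide 5. No slide links the cold groups to the controls, so for these comparisons slide and group cannot be told apart.

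The 3 globin probes were well above background on every array, and the members' means were higher in arthritic joints than in control joints in nearly every comparison, but arrays of 1 group differed widely and no member passed the test. All 8 members had a higher mean in AIA-hot-WTD, AIA-hot, AIA-cold and AIA than in control, and 7 of 8 in AIA-cold-WTD, with Hbb-b1 the exception. These counts rest in part on control replicate 3, without which 8 of 8 had a higher mean in AIA-hot-WTD and in AIA-cold, 6 in AIA-hot, 4 in AIA-cold-WTD and 3 in AIA. The median log2 difference of the 8 from control was 2.40 in AIA-hot-WTD, 1.10 in AIA-hot, 1.11 in AIA-cold-WTD, 1.67 in AIA-cold and 0.65 in AIA, whereas the median over all 23618 genes tested lay between -0.06 and -0.03 in these comparisons. By limma with Benjamini-Hochberg adjustment over all genes, 0 of 8 members passed in any of the 14 comparisons made. These tissue RNAs are bulk samples, in which more or fewer red cells and more or less RNA per cell cannot be told apart.

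**Figure D1:**
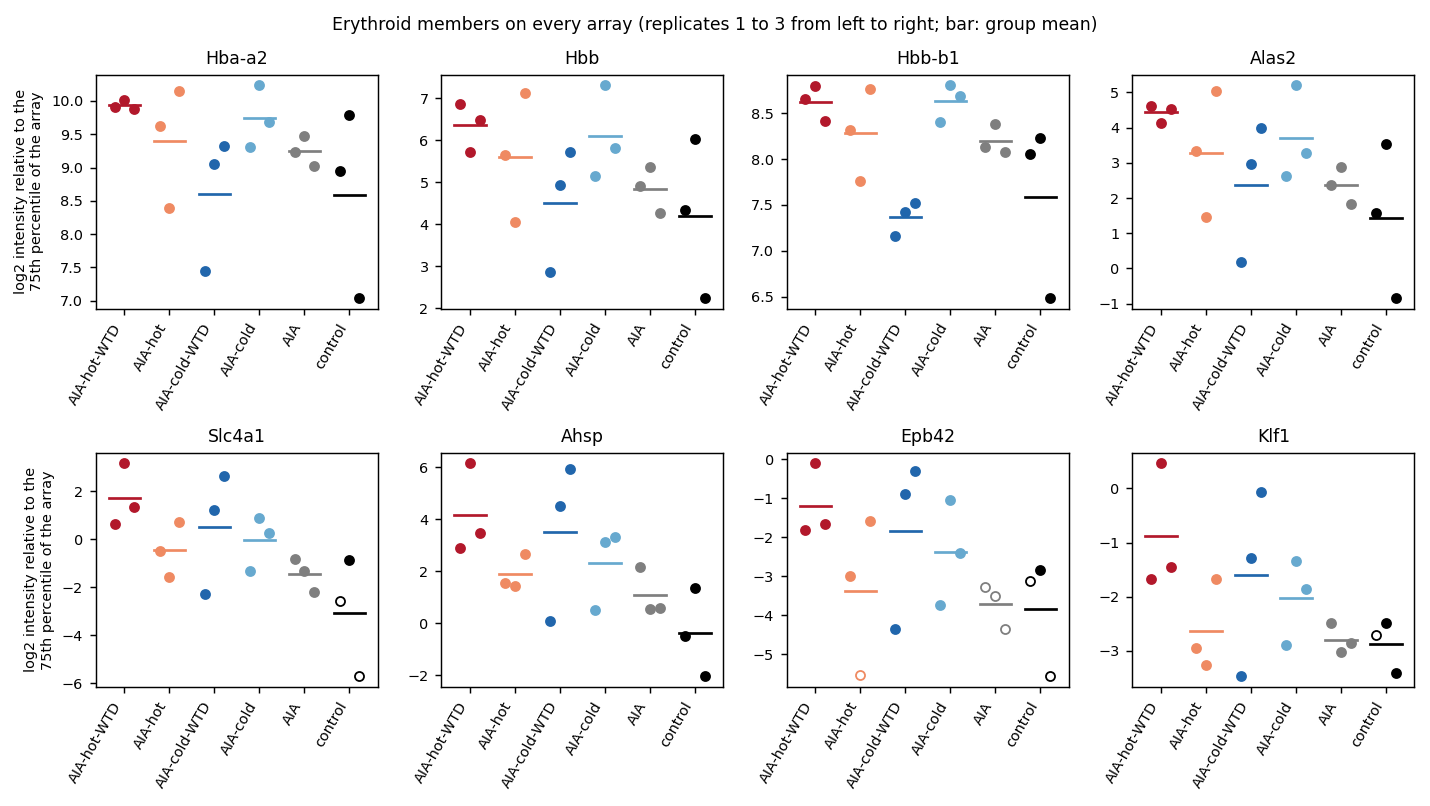
Log2 intensity relative to the array's 75th percentile for the 8 members on every array, by group, with replicates 1 to 3 from left to right, group means as bars and hollow points where the probe was not well above background. The 3 AIA-hot-WTD arrays lie above all controls in 7 of 8 panels, control replicate 3 is the lowest array for 7 of 8 members, and AIA-cold-WTD replicate 1 lies far below the other arrays of its group except for Hbb-b1.

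AIA-hot-WTD had the highest group mean for 7 of 8 members, all but Hbb-b1. Against control, 8 of 8 members had an unadjusted p under 0.05 and were higher, against 4.58% of all genes. For 7 of 8 members the arrays of both groups did not overlap and AIA-hot-WTD was higher, against 6.78% of all genes. The exception was Hbb. Slc4a1, Epb42 and Klf1 were well above background on 1, 1 and 2 of 3 controls. They entered the test only through groups other than control, so their part in the counts against control is in part set by that entry. The smallest adjusted p of a member by limma was 0.13, for Slc4a1, and 0.0296% of all genes were called higher in this comparison.

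Fewer members stood out in the other groups. In AIA-cold, 2 of 8 members (Hbb-b1 and Slc4a1) had an unadjusted p under 0.05, against 7.46% of all genes higher at that level, and 0.241% of all genes were called higher. Hbb-b1 was the 1 of 8 with no overlap there, against 10.8%. In AIA-cold-WTD the members under that level were Slc4a1 and Ahsp, 2 of 8 against 5.74%, and 0.00847% of all genes were called higher. No member was free of overlap there, 0 of 8 against 6.45%. In AIA-hot 0 of 8 members and in AIA 0 of 8 had an unadjusted p under 0.05, against 4.61% and 2.48% of all genes, and 0.0127% and 0% were called higher. Ahsp was the 1 of 8 with no overlap between AIA-hot and control, against 5.02% of all genes, and between AIA and control there were 0 of 8, against 5.32%.

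Control replicate 3 had the lowest value of all 18 arrays for 7 members and the second lowest for Klf1. Without it, the median difference of the members from control was 1.75 in AIA-hot-WTD, 0.28 in AIA-hot, 0.40 in AIA-cold-WTD, 0.75 in AIA-cold and -0.16 in AIA, and 2 of 8 members had an unadjusted p under 0.05 in AIA-hot-WTD and 0 of 8 in AIA-cold. The direction turned for Epb42 and Klf1 in AIA-hot, for Hba-a2, Hbb and Alas2 in AIA-cold-WTD, and for Hba-a2, Hbb, Alas2, Epb42 and Klf1 in AIA. Without control replicate 2 the medians were 1.85 in AIA-hot and 1.73 in AIA-cold-WTD and 1.40 in AIA, and 6 of 8 members had an unadjusted p under 0.05 in AIA-hot and 6 of 8 in AIA-cold. Arrays of the arthritic groups mattered too. The median in AIA-hot was 0.55 without AIA-hot replicate 3 and 1.87 without AIA-hot replicate 2, and that in AIA-cold-WTD was 0.32 without AIA-cold-WTD replicate 3 and 2.12 without AIA-cold-WTD replicate 1. In AIA-cold 5 of 8 members were under that level without AIA-cold replicate 1, and in AIA-hot-WTD 5 of 8 without AIA-hot-WTD replicate 2. With slide as a fixed block, which AIA and AIA-hot arrays make possible, the median difference of AIA-hot-WTD from control was 0.52, with 7 of 8 members higher and 0 of 8 at an unadjusted p under 0.05. The share of all genes at that level was not taken for fits with an array left out or a slide block, here or below. Without control replicate 2, 93 of all genes were called higher and 208 lower in AIA-cold, against 57 and 69 with it. In AIA-hot these were 13 and 36, against 3 and 10. Without control replicate 1, calls over all genes were 20 higher and 25 lower in AIA-cold and 3 and 4 in AIA-hot. The median differences of the members without that array are not given here.

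Hba-a2, read by the alpha-globin probe, had values of 9.91, 10.01 and 9.88 in AIA-hot-WTD, 9.63, 8.40 and 10.15 in AIA-hot, and 7.45, 9.05 and 9.32 in AIA-cold-WTD. It read 9.31, 10.24 and 9.69 in AIA-cold, 9.23, 9.47 and 9.02 in AIA, and 8.95, 9.79 and 7.04 in control. The 3 AIA-hot-WTD arrays lay within 0.12 of each other and above every control, while the controls spread over 2.75. The difference from control was 1.34 ± 0.62 in AIA-hot-WTD (moderated SE, 3 arrays a group), a 2.53-fold higher level with an adjusted p of 0.37 by limma, and 1.15 ± 0.62 in AIA-cold with an adjusted p of 0.34.

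Hbb-b1 had the narrowest spread of the members, with a pooled within-group SD of 0.47, and was the 1 member whose arrays did not overlap between AIA-cold-WTD and AIA-cold. Its probe was bright: before the percentile was subtracted, its median log2 signal was 16.4, against 17.6 for Hba-a2 and 13.5 for Hbb. Whether signal this bright still rises in step with RNA was not tested, which limits what the narrow spread shows. Hbb-b1 read 7.16, 7.43 and 7.52 in AIA-cold-WTD, against 8.40, 8.80 and 8.68 in AIA-cold. Every AIA-cold-WTD array lay below every AIA-cold array. The difference was -1.26 ± 0.36, with an unadjusted p of 0.0033 and an adjusted p of 0.58 by limma. The values in AIA-hot-WTD were 8.65, 8.79 and 8.41, against 8.32, 7.77 and 8.76 in AIA-hot, which overlap. AIA stood at 8.13, 8.38 and 8.08, and control at 8.06, 8.22 and 6.49. The difference from control was 1.03 ± 0.36 in AIA-hot-WTD (adjusted p 0.23) and 1.04 ± 0.36 in AIA-cold (adjusted p 0.15), both with no overlap of arrays.

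Hbb, read at the start of its transcript, ranged far more widely than Hbb-b1. Its values over the 18 arrays spanned 5.06 on the log2 scale, against 2.31 for Hbb-b1. The Hbb-b1 probe was brighter, and the limit on bright signal given above applies here. Hbb read 6.85, 5.73 and 6.49 in AIA-hot-WTD, 5.64, 4.05 and 7.13 in AIA-hot, and 2.86, 4.94 and 5.72 in AIA-cold-WTD. It read 5.15, 7.31 and 5.81 in AIA-cold, 4.91, 5.36 and 4.28 in AIA, and 4.34, 6.03 and 2.25 in control. Control replicate 2 lay above AIA-hot-WTD replicate 2, so those groups overlapped. The differences from control were 2.15 ± 0.97 in AIA-hot-WTD (adjusted p 0.35 by limma) and 1.89 ± 0.97 in AIA-cold (adjusted p 0.31). Unlike Hbb-b1, Hbb overlapped between AIA-cold-WTD and AIA-cold, with a difference of -1.58 ± 0.97.

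Alas2 read 4.61, 4.14 and 4.54 in AIA-hot-WTD, 3.35, 1.45 and 5.03 in AIA-hot, and 0.18, 2.98 and 4.00 in AIA-cold-WTD. It read 2.62, 5.21 and 3.29 in AIA-cold, 2.38, 2.87 and 1.82 in AIA, and 1.59, 3.55 and -0.84 in control. AIA-hot-WTD was again the tightest group, with all 3 arrays above the controls, while the controls spread over 4.38. The difference from control was 3.00 ± 1.15 in AIA-hot-WTD, 7.99-fold, with an adjusted p of 0.27 by limma, and 2.27 ± 1.15 in AIA-cold with an adjusted p of 0.30.

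Slc4a1, the band 3 gene, read 0.64, 3.15 and 1.34 in AIA-hot-WTD, -0.50, -1.60 and 0.73 in AIA-hot, and -2.30, 1.19 and 2.63 in AIA-cold-WTD. It read -1.32, 0.89 and 0.25 in AIA-cold, -0.83, -1.32 and -2.19 in AIA, and -2.59, -0.88 and -5.72 in control. It was well above background on all 15 arthritic arrays and on 1 of 3 controls, replicate 2. The difference from control was 4.77 ± 1.27 in AIA-hot-WTD, with no overlap, an unadjusted p of 0.0021 and an adjusted p of 0.13 by limma. It was 3.57 ± 1.27 in AIA-cold-WTD (adjusted p 0.23) and 3.00 ± 1.27 in AIA-cold (adjusted p 0.22). Without control replicate 3 it was 3.45 in AIA-hot-WTD (adjusted p 0.19) and 1.68 in AIA-cold (adjusted p 0.43).

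Ahsp, the alpha-globin chaperone, read 2.87, 6.14 and 3.48 in AIA-hot-WTD, 1.56, 1.44 and 2.67 in AIA-hot, and 0.10, 4.50 and 5.93 in AIA-cold-WTD. It read 0.53, 3.10 and 3.30 in AIA-cold, 2.16, 0.55 and 0.59 in AIA, and -0.48, 1.35 and -2.03 in control. Both AIA-hot-WTD and AIA-hot lay above every control. AIA-hot-WTD also lay above AIA-hot without overlap, at a difference of 2.27 ± 1.33 with an adjusted p of 1.00 by limma. Within AIA-cold-WTD the highest and the lowest array differed 57.1-fold. The difference from control was 4.55 ± 1.33 in AIA-hot-WTD (adjusted p 0.16) and 3.90 ± 1.33 in AIA-cold-WTD (adjusted p 0.22).

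Epb42, the gene of protein 4.2, was dim. Its probe was well above background on all 3 arrays of AIA-hot-WTD, AIA-cold-WTD and AIA-cold, on 2 of AIA-hot, on 0 of AIA and on 1 of control. It ranged over -1.82 to -0.11 in AIA-hot-WTD, -5.53 to -1.59 in AIA-hot, -4.35 to -0.32 in AIA-cold-WTD, -3.73 to -1.05 in AIA-cold, -4.35 to -3.28 in AIA and -5.56 to -2.85 in control. AIA-hot-WTD lay above all controls, at a difference of 2.65 ± 1.15 (adjusted p 0.33 by limma). No AIA array read it well above background, so the ratio of the AIA-cold mean to the AIA mean is given as a bound, at least 2.41-fold. That bound allows for the dim signal only and not for the spread between arrays. The measured means were -2.39 and -3.72, the arrays overlapped, and the adjusted p was 0.81 by limma.

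Klf1, the transcription factor of the set, read -1.67, 0.46 and -1.45 in AIA-hot-WTD, -2.95, -3.27 and -1.67 in AIA-hot, and -3.47, -1.28 and -0.07 in AIA-cold-WTD. It read -2.89, -1.33 and -1.86 in AIA-cold, -2.49, -3.02 and -2.86 in AIA, and -2.71, -2.48 and -3.41 in control. It was well above background on all arrays but control replicate 1. AIA-hot-WTD lay above every control and, by a narrow margin, above every AIA-hot array. The difference from control was 1.98 ± 0.75 (adjusted p 0.27 by limma), and from AIA-hot 1.75 ± 0.75 with an unadjusted p of 0.036 and an adjusted p of 1.00.

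**Figure D2:**
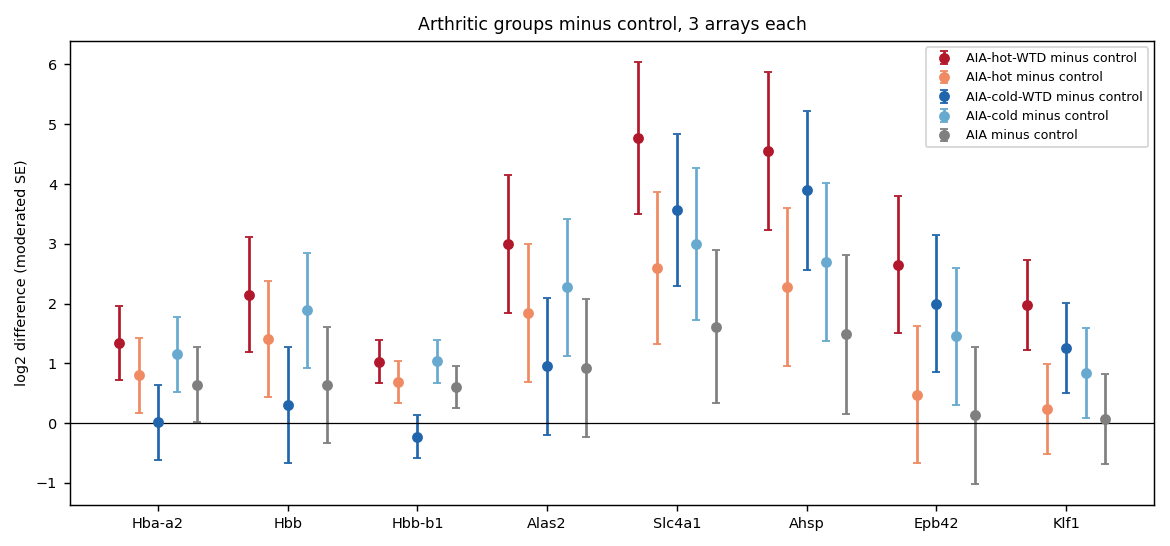
Log2 difference of each arthritic group from control for the 8 members, with the moderated standard error from the limma fit, 3 arrays a group. Slc4a1 lies at 4.77 and Ahsp at 4.55 in AIA-hot-WTD, where Slc4a1 was well above background on 1 of 3 controls, the standard errors reach 1.33, and only Hbb-b1 in AIA-cold-WTD lies below 0.

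The order of the group means differed between members. For Slc4a1, Ahsp, Epb42 and Klf1 it ran AIA-hot-WTD, AIA-cold-WTD, AIA-cold, AIA-hot, AIA, control. For Hba-a2 and Hbb it ran AIA-hot-WTD, AIA-cold, AIA-hot, AIA, AIA-cold-WTD, control. For Hbb-b1 AIA-cold stood first and AIA-cold-WTD last. For Alas2 it ran as for Hba-a2 but with AIA-cold-WTD just above AIA. Neighbours in these orders lay closer together than the pooled within-group SD, which ran from 0.47 for Hbb-b1 and 0.82 for Hba-a2 to 1.77 for Ahsp. The exception was the step between AIA and control for Hbb-b1, 0.61 against that SD of 0.47.

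WTD was set against the untreated rats of the same model. In AIA-hot-WTD against AIA-hot all 8 members had a higher mean, with a median log2 difference of 1.45, but 1 of 8 (Klf1) had an unadjusted p under 0.05, against 1.19% of all genes higher at that level. Ahsp and Klf1 were the 2 of 8 with no overlap, against 2.65% of all genes. Members called by limma were 0 of 8, as were 0% of all genes. On slide 3, which held all AIA-hot-WTD arrays and 1 AIA-hot array, the 3 globins and Alas2 were lower in AIA-hot-WTD, at log2 differences of -0.77 to -0.14, and the other 4 were higher, with the least at 0.40 for Epb42. With slide as a fixed block the median was 0.13, with 4 of 8 members higher, and without AIA-hot replicate 2 it was 0.67, with 7 of 8 higher.

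In AIA-cold-WTD against AIA-cold the members split. The 3 globins and Alas2 had lower means, at log2 differences of -1.58 to -1.14, and Slc4a1, Ahsp, Epb42 and Klf1 had higher means, at 0.43 to 1.20. Only Hbb-b1 had an unadjusted p under 0.05, 1 of 8 lower against 3.43% of all genes, and it was also the 1 of 8 with no overlap, against 6.71% of all genes. Members called were 0 of 8 by limma, against 0.00847% of all genes called lower. On slide 4, which held AIA-cold-WTD replicate 1 and all AIA-cold arrays, all 8 members were lower on that array than in AIA-cold, at log2 differences of -3.52 for Alas2 to -1.44 for Klf1. With AIA-cold-WTD replicate 1 left out, the median difference of the members was 0.57, against -0.36 with it, with AIA-cold-WTD replicate 3 left out it was -0.92 and with AIA-cold-WTD replicate 2 left out -0.62. It was -0.74 without AIA-cold replicate 1 and 0.10 without AIA-cold replicate 2.

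**Figure D3:**
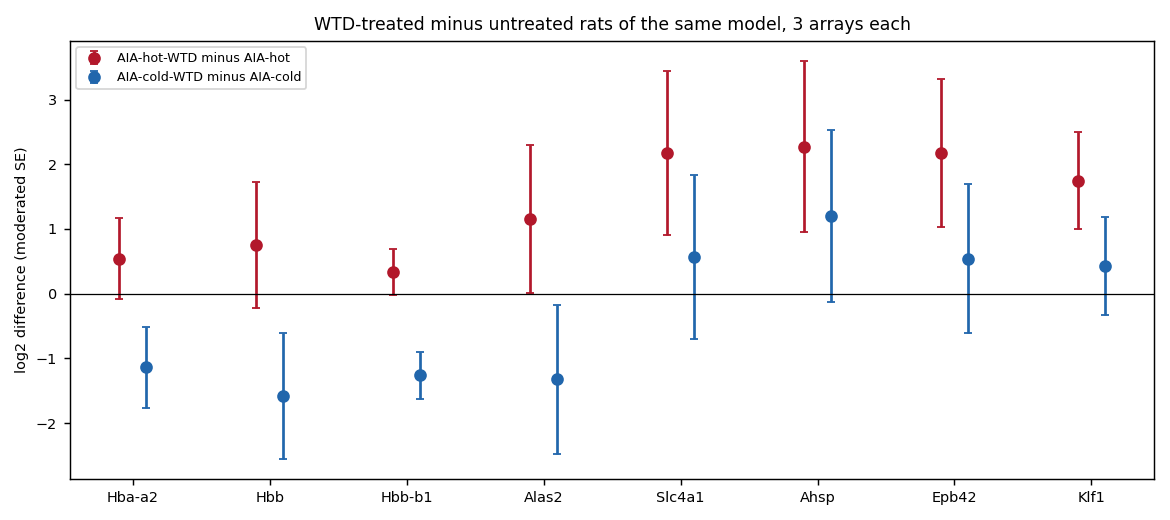
Log2 difference between WTD-treated and untreated rats of the same model for the 8 members, with the moderated standard error, 3 arrays a group. All 8 points of the hot model lie above 0, while in the cold model the globins and Alas2 lie below 0 (Hbb-b1 at -1.26 ± 0.36) and the other 4 above it.

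The difference between both WTD effects was tested itself. The effect in the cold model minus that in the hot model was negative for 8 of 8 members, between -2.48 and -1.08, with an unadjusted p under 0.05 for 1 of 8 (Hbb-b1), against 2.16% of all genes. For Hbb-b1 it was -1.60 ± 0.51, with an unadjusted p of 0.0069 by limma. The smallest adjusted p by limma was 0.99, and 0% of all genes were called. Without AIA-cold-WTD replicate 1 the median of the 8 was -0.75, against -1.62 with it, and Ahsp was positive. With slide as a fixed block the median was -2.41, with 8 of 8 members negative and 0 of 8 at an unadjusted p under 0.05. Between the treated groups themselves, AIA-cold-WTD had lower means than AIA-hot-WTD for 8 of 8 members, with a median of -1.23. Without AIA-cold-WTD replicate 1 the median was -0.28, with 4 of 8 lower, and without AIA-hot-WTD replicate 2 it was -0.82, with 7 of 8 lower. The 3 globins and Alas2 did not overlap there, 4 of 8 members against 3.15% of all genes lower, and Hbb-b1 had an unadjusted p under 0.05, 1 of 8 against 1.75%. None of the 8 was called by limma, as were 0% of all genes, and no slide links these 2 groups. Averaged over both models, WTD groups differed from untreated ones by a median of 0.50, with 4 members higher and 4 lower. With slide as a fixed block the median was -0.79, with 0 of 8 members higher and 2 of 8 at an unadjusted p under 0.05. Without AIA-cold-WTD replicate 1 it was 1.01, with 4 of 8 under that level, without AIA-cold-WTD replicate 3 it was 0.11, without AIA-hot replicate 2 it was 0.14, and without AIA-cold replicate 1 it was 0.26. It was 0.78 without AIA-cold replicate 2 and 0.84 without AIA-hot replicate 3. By limma 0 of 8 had an unadjusted p under 0.05, against 1.97% of all genes higher, and 0 of 8 had no overlap, against 0.0677%.

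Both models were also set against plain AIA. All 8 members had higher means in AIA-cold than in AIA, with a median of 1.22 and 0 of 8 at an unadjusted p under 0.05, against 3.79% of all genes. Hbb-b1 was the 1 of 8 with no overlap there, against 10.7%. Without AIA-cold replicate 2 the median was 0.61. The members also had higher means in AIA-hot than in AIA, with a median of 0.55, 0 of 8 under that level, against 2.58%, and 0 of 8 with no overlap, against 4.07%. On slide 2, with 2 arrays of each group, 4 members were higher and 4 lower in AIA-hot than in AIA. With slide as a fixed block the median was -0.07, with 4 of 8 higher, without AIA-hot replicate 3 it was -0.08, with 3 of 8 higher, without AIA replicate 3 it was 0.30, and without AIA-hot replicate 2 it was 1.22. The median difference of AIA-cold from AIA-hot was 0.42, with 0 of 8 under that level, against 3.19%, and 0 of 8 with no overlap, against 8.29%. Without AIA-hot replicate 2 it was -0.12, with 3 of 8 higher, without AIA-cold replicate 2 it was 0.065, without AIA-cold replicate 1 it was 1.00, and without AIA-hot replicate 3 it was 1.04. No slide links AIA-cold to AIA or AIA-hot, so slide and group cannot be told apart in these comparisons. Of all genes, 0% were called higher in either model than in AIA, and 0.00847% in AIA-cold than in AIA-hot. Over the 5 arthritic groups together, 3 of 8 members (Hbb-b1, Slc4a1 and Ahsp) were higher than in control at an unadjusted p under 0.05, against 6.85% of all genes, and 0 of 8 were called by limma, against 0.296% of all genes called higher. None of the 8 was free of overlap, against 0.682%. Without control replicate 3 the median over the 5 groups was 0.55, with 0 of 8 at an unadjusted p under 0.05, and without control replicate 2 it was 2.01, with 6 of 8. These comparisons share arrays with those above.

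Much of the variation lay between arrays of 1 group. For Slc4a1, Ahsp, Epb42 and Klf1 the highest array of all 18 was AIA-hot-WTD replicate 2 and the next AIA-cold-WTD replicate 3, with AIA-cold-WTD replicate 2 at rank 3 or 4. AIA-cold-WTD replicate 3 ranked 8 to 15 for the 3 globins and 6 for Alas2, and replicate 2 ranked 10 to 16 for these 4. The highest array for each globin and Alas2 was AIA-cold replicate 2. Control replicate 3 and AIA-cold-WTD replicate 1 held the last and the last but 1 rank for the 3 globins and Alas2.

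The members varied together, though not as 1 block. Over the 18 arrays, with each group's mean taken out, Pearson's r between members ranged from 0.52 to 0.99 over 28 pairs, with a median of 0.85. It was 0.82 to 0.99 among the 3 globins and Alas2, 0.84 to 0.94 among Slc4a1, Ahsp, Epb42 and Klf1, and 0.52 to 0.91 between these sets. The sets were formed after the values were seen. All points share their array, so anything that moves a whole array enters each r.

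The co-variation with Alas2 was tested for the other 7 members by exact two-sided permutation of arrays within groups, with 46656 arrangements. For Hbb r was 0.99 and rho 0.98, each with p = 2.14e-05, the smallest these arrangements can give, and an adjusted p of 0.00015 over the 7 relations. For Hba-a2 r was 0.97 (p = 0.00011) and rho 0.95 (p = 0.00041), and for Hbb-b1 r was 0.82 (p = 0.00032) and rho 0.81 (p = 0.0014). Epb42 and Slc4a1 followed with r of 0.90 and 0.88. The lowest were Ahsp at r 0.72 (p = 0.0069, adjusted p 0.0069) and rho 0.56 (p = 0.0501, adjusted p 0.0501), and Klf1 at r 0.70 (p = 0.0043, adjusted p 0.0051) and rho 0.64 (p = 0.016, adjusted p 0.019). Adjusted p was at most 0.0011 for r of the other 5 members, so 7 of 7 passed 0.05 by r and 6 of 7 by rho, all but Ahsp. Genes outside the members were not put to this test, so the share of all genes that would pass is not known. Without control replicate 3 and AIA-cold-WTD replicate 1, the arrays farthest from the median of Alas2, r was 0.56 for Ahsp (p = 0.043), 0.60 for Klf1 (p = 0.024) and 0.79 to 0.99 for the other 5, by the same exact permutation test over 5184 arrangements. No slide held 6 arrays, so r was not taken within slides.

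**Figure D4:**
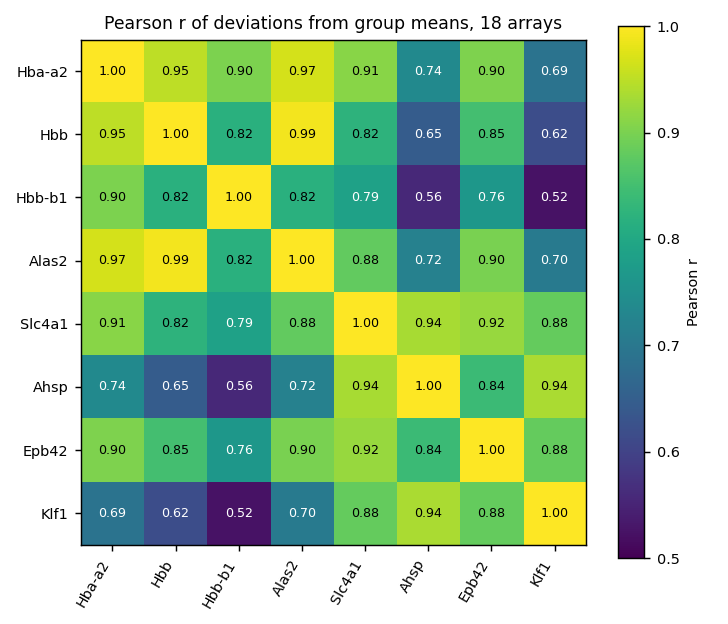
Pearson's r between the 8 members over 18 arrays after subtraction of group means, with the value printed in each cell. The globins and Alas2 are placed in 1 corner (0.82 to 0.99) and Slc4a1, Ahsp, Epb42 and Klf1 in the other (0.84 to 0.94). Between these sets r ran from 0.52 (Hbb-b1 and Klf1) to 0.91 (Hba-a2 and Slc4a1), so the ranges overlap.

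Other red cell genes were taken from lists by role, and none of their measured genes passed the adjusted threshold by limma in any comparison. Of the 12 measured genes of the red cell membrane and skeleton, 6 were higher in AIA-hot-WTD than in control at an unadjusted p under 0.05, against 4.58% of all genes, and 0 lower, with a median difference of 1.42, and 3 were higher in AIA-cold-WTD, against 5.74%. On AIA-hot-WTD arrays 11 to 12 of them were well above background, against 5 to 8 on controls. A gene that entered the test only through a group where it is high had to differ from control, so the counts and medians of these lists describe the measured genes only. Rhag, a Rh-complex protein of the red cell membrane, ranged from -6.45 on AIA-cold replicate 1 to 1.44 on AIA-cold-WTD replicate 3 and was well above background on 7 arrays. Sptb, the beta spectrin of the red cell skeleton, was highest on AIA-hot-WTD replicate 2, at -0.94.

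Of the 7 measured erythroid transcription factors and receptor genes, 2 were higher in AIA-hot-WTD than in control at that level, against the same 4.58% of all genes, with a median of 0.20. Gata1 ranged from -5.95 on control replicate 3 to -1.28 on AIA-hot-WTD replicate 2, whereas Epor, the erythropoietin receptor, differed by 0.20 ± 0.22 and Tal1 by -0.37 ± 0.31 between AIA-hot-WTD and control. Of the 11 late erythroid cytosolic genes 4 were higher, against 4.58%, with a median of 0.43. Hemgn, a nuclear protein of blood precursors, had a difference of 3.02 ± 1.14 (adjusted p 0.26), Bpgm, which makes the haemoglobin ligand bisphosphoglycerate, 1.07 ± 0.44 and Blvrb, biliverdin reductase B, 0.17 ± 0.25.

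The genes of haem synthesis shared with other tissues had differences nearer 0. Of 8 measured, 1 was higher in AIA-hot-WTD than in control at an unadjusted p under 0.05, against 4.58% of all genes as for each list here, and the median difference was 0.12. Alas1, the form of the enzyme used outside red cells, differed by -0.30 ± 0.27 and Alad, the next enzyme of the pathway, by -0.08 ± 0.39. Of 7 genes of erythroid iron handling 1 was higher, with a median of 0.09: the transferrin receptor Tfrc differed by -0.15 ± 0.54, the mitochondrial carriers Slc25a37 by -0.11 ± 0.51 and Slc25a38 by 0.50 ± 0.22. Of 2 other globins measured, Hbe2 was higher at that level, by 1.62 ± 0.64 (adjusted p 0.28), and Hbg1 differed by 0.65 ± 0.54. Of the 7 haemoglobin clearance genes 0 were under that level, with a median of 0.03. The haemoglobin receptor Cd163 differed by -0.11 ± 0.28, haem oxygenase Hmox1 by 0.03 ± 0.43 and haptoglobin Hp by 0.97 ± 0.55.

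Markers of marrow and bone were high on some of the same arrays. The mean log2 level of the 10 measured neutrophil and marrow granulocyte genes (of 13 listed) was 3.71 on AIA-hot-WTD replicate 2, 3.58 on AIA-cold-WTD replicate 3 and 2.44 on AIA-cold-WTD replicate 2. By group it ranged over 0.58 to 3.71 in AIA-hot-WTD, -1.03 to 0.33 in AIA-hot, -0.80 to 3.58 in AIA-cold-WTD, -1.14 to 1.62 in AIA-cold, -2.23 to 0.83 in AIA and -2.43 to -1.48 in control. In AIA-hot-WTD 8 of these 10 genes were higher than in control at an unadjusted p under 0.05, against 4.58% of all genes, with a median of 4.09. Camp, the cathelicidin of granules, stood 5.13 ± 1.49 higher (adjusted p 0.16), Ngp 1.58 ± 1.33 and the myeloperoxidase gene Mpo 0.76 ± 0.85.

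The 7 measured genes of osteoblast and bone (of 8) averaged 2.41 on AIA-hot-WTD replicate 2, 1.48 on AIA-cold-WTD replicate 3 and 1.66 on AIA-cold-WTD replicate 2. They also averaged 2.42 on AIA-cold replicate 3 and 2.56 on control replicate 1, where the erythroid members were not at their highest. By group they ranged over -1.24 to 2.41 in AIA-hot-WTD, -1.75 to 0.04 in AIA-hot, 0.39 to 1.66 in AIA-cold-WTD, -1.54 to 2.42 in AIA-cold, -1.38 to -0.93 in AIA and -1.43 to 2.56 in control. Bglap, which encodes osteocalcin, reached 6.47 on AIA-hot-WTD replicate 2. Ibsp, bone sialoprotein, and Alpl, the bone phosphatase, were highest on control replicate 1, at 4.25 and 2.17. The 3 measured osteoclast genes (Acp5, Ctsk and Mmp9, of 8 listed) averaged 3.78 on AIA-hot-WTD replicate 2 and 3.54 on AIA-cold-WTD replicate 3, and also 3.67 on AIA-cold replicate 3 and 3.54 on control replicate 1.

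The 7 measured megakaryocyte and platelet genes (of 12) averaged -0.01 to 0.72 in AIA-hot-WTD, -0.84 to 0.31 in AIA-hot, -1.16 to 0.14 in AIA-cold-WTD, -0.76 to 0.13 in AIA-cold, -0.80 to -0.56 in AIA and -1.16 to -0.49 in control. Of these, 3 were higher in AIA-hot-WTD than in control at an unadjusted p under 0.05, against 4.58% of all genes. Gp9, a platelet membrane glycoprotein, differed by 2.09 ± 0.58, and the platelet chemokines Pf4 and Ppbp by 0.82 ± 0.39 and 1.51 ± 0.71. Of the B cell precursor genes 2 of 9 were measured, and Vpreb3 peaked at 0.33 on AIA-hot-WTD replicate 2, while Cd79a was well above background on 4 arrays. The part of marrow, bone and blood cells in the erythroid values was not tested.

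**Figure D5:**
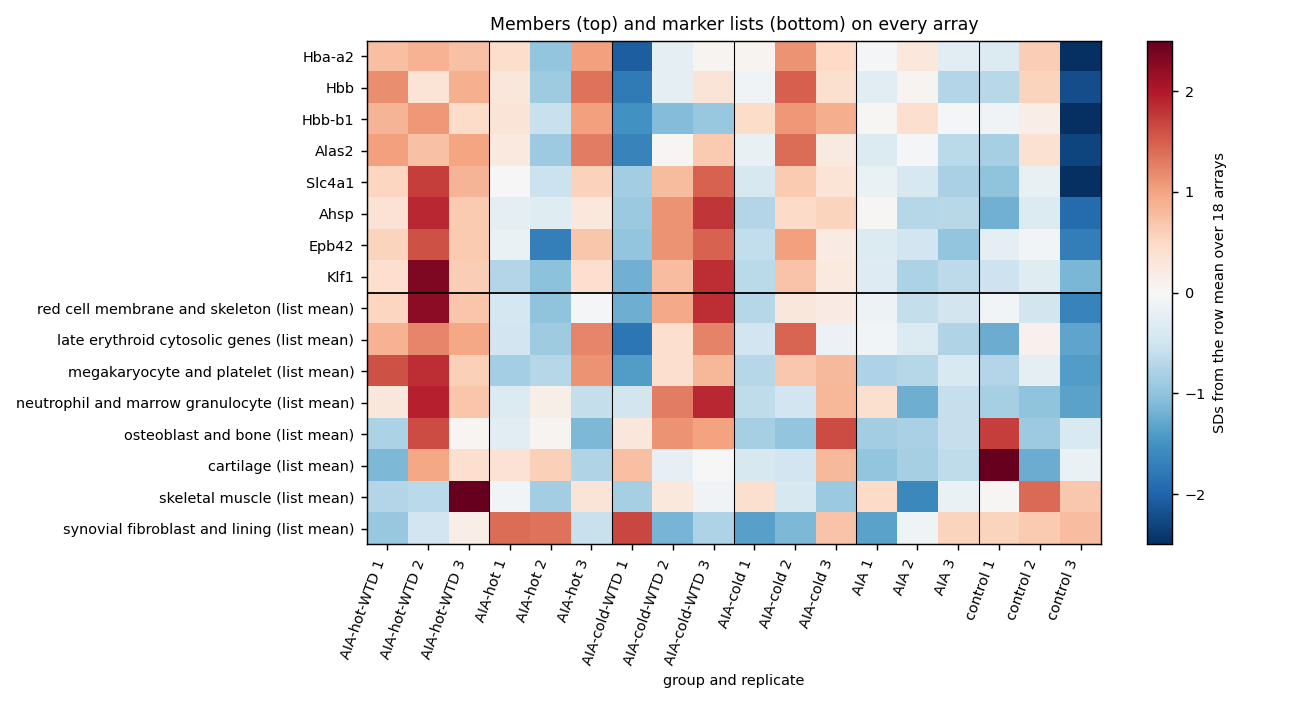
The 8 members (top) and the mean level of 8 marker lists (bottom) on every array, as SDs from the row's mean over 18 arrays. AIA-hot-WTD replicate 2 and AIA-cold-WTD replicate 3 are high for Slc4a1, Ahsp, Epb42, Klf1, the red cell membrane list and the granulocyte list (3.71 and 3.58), and control replicate 1 stands out in the cartilage list (4.27).

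Markers of other tissues were read as well. The 7 measured cartilage genes (Acan, Col2a1 and Comp the first listed) averaged 4.27 on control replicate 1 and -1.98 to 1.37 on the rest, and the 7 skeletal muscle genes (Ckm, Acta1 and Myh4 the first) averaged 4.78 on AIA-hot-WTD replicate 3. The 8 adipocyte genes, with Adipoq, Fabp4 and Plin1 first, had their lowest mean, 2.52, on AIA-cold-WTD replicate 1, where all erythroid members were low too. The 8 genes of synovial fibroblasts and lining (Prg4, Thy1 and Pdpn first) averaged 1.55 to 2.62 and were highest on that same array. The 8 endothelial genes (Pecam1, Cdh5 and Kdr first) averaged 1.29 to 2.85 and the 8 proliferation genes (Mki67, Top2a and Cdk1 first) -2.47 to -0.54. For deviations from group means over 18 arrays, Klf1 had an r of 0.95 with the mean of the membrane list, 0.85 with the platelet list, 0.70 with the granulocyte list and 0.29 with the bone list. For Hbb these were 0.62, 0.72, 0.14 and -0.23. With the late erythroid list r was 0.85 for Klf1 and 0.86 for Hbb, and with the other globins 0.46 and 0.89. Ahsp had the highest r of the members with the granulocyte list, at 0.80. With the adipocyte list r was 0.21 for Hbb-b1 and 0.54 to 0.64 for the other 7 members, and with the list of synovial fibroblasts and lining it was -0.58 for Epb42 to -0.29 for Hbb-b1. The part of these tissues in the erythroid values was not tested.

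Genes whose level was most like the mean of the 8 standardized members over the 18 arrays were ranked by Pearson's r. Add2, the beta adducin of the red cell skeleton, came first at 0.99, followed by Car2, a carbonic anhydrase abundant in red cells, at 0.97, Cd52, a surface glycoprotein of leukocytes, at 0.95, and Rhd of the Rh complex at 0.93. Hemgn, Rec114, Tmem86b, Nfe2 and Il17ra were at 0.89 to 0.87. Add2, Rhd, Hemgn and Nfe2 also stood on the red cell lists. Add2 spanned -5.26 to 1.10 over the arrays and Car2 -0.86 to 4.13.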

How the data were processed

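The deposited scanner files hold fluorescence intensity values per spot. Agilent Feature Extraction 10.7 is named in the submitters' processing notes, and the file headers show that the authors' processed signal has background removed and spatial trend corrected, with no scaling between arrays. The authors' deposited series table was taken as log2 values, since its columns correlate with the log2 processed signal at 0.989 to 1.000. Its column medians lie at 5.40 to 5.42, its normalization is not given in the sources used here, and it served as an alternative only. Flags and probe coordinates are other deposited columns.

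Each array's log2 processed signal had the 75th percentile over gene probes subtracted. Control and outlier-flagged spots were dropped, and no spot was saturated. A probe entered if 1 group or more had it well above background on all its 3 arrays (28287 probes), and a gene took its brightest such probe. All 8 members passed. limma 3.58.1 in R 4.3.3 fitted 1 mean per group over 23618 genes, with 12 residual and 2.29 prior degrees of freedom, and p-values were adjusted by Benjamini-Hochberg within each of 14 comparisons, called at 0.05. The number of arrays limits the precision. Replicate numbers follow accession order and pair nothing. Whether the arrays of a group came from separate rats is not stated, so p-values measure the spread between these arrays, which may be technical. For "at least" folds, a dim probe was set, array by array, to its own value or to the dimmest signal still well above background, whichever was higher. Other genes were named by rule: the first 3 measured of each of 18 lists (129 of 179 genes measured), up to 4 called genes of each, and the 10 genes most like the members. Some genes under this rule are not reported here. Names came from the files or from RefSeq (GRCr8). Members and lists were chosen with earlier results of these data known. The fit and the permutation test were tested on simulated data. The closing section gives the alternatives tried.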

Additional observations from a re-analysis of the deposited data

Results flagged for a closer look

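Slc4a1 has another probe, at chr10:91458828-91459400 on rn4, which no comparison used because it was not well above background on all 3 arrays of any group. It was well above background on 2 of 18 arrays, at -3.45 on AIA-cold-WTD replicate 3 and -3.50 on AIA-hot-WTD replicate 2, and on 0 of 3 controls. These are the 2 arrays on which the probe used for Slc4a1 was highest, at 2.63 and 3.15. What flagged it is signal in data outside the main measurement, above the background call that all controls missed. Its values in control were -3.87, -6.15 and -5.99.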

How the results depend on the processing

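No paired analysis was possible because the labels number no replicates across groups. Under the alternatives with a value (quantile normalization, median centring, normexp background correction, the authors' deposited values, probe filters and summaries, slide as a fixed or random block, only the groups compared, and each array left out), members called stayed at 0 in all 14 comparisons, with 2 exceptions. With normexp 2 members (Hbb-b1 and Ahsp) were called over the 5 arthritic groups against control, where 885 genes were called higher and 6044 lower. With array weights 8 were called in that comparison, 8 in AIA-hot-WTD, 2 in AIA-hot, 5 in AIA-cold-WTD and 6 in AIA-cold against control, 2 in AIA-cold-WTD against AIA-cold and 1 for WTD over both models. The weights were 0.0873 for control replicate 1 and 4.31 for control replicate 3, which then sets most of the control level. Over all genes, calls in AIA-cold against control numbered 2944 higher and 3282 lower with array weights, against 57 and 69 without. With these weights they numbered 856 and 1121 in AIA-hot-WTD, 1987 and 2082 in AIA-hot, and 2601 and 3116 in AIA-cold-WTD. They numbered 2087 and 2444 over the 5 arthritic groups against control. For AIA-cold-WTD against AIA-cold they were 2067 and 2216, and for WTD over both models 728 and 1088. Leaving out any 1 array gave 0 to 0 members called. The difference of Hbb between AIA-hot-WTD and control was -0.038 with slide as a fixed block, and that of Klf1 between AIA-cold and control was -0.10 with normexp. The fixed block can be estimated for 8 of the 14 comparisons, and requiring signal on all 18 arrays left 5 members. Co-variation with Alas2 passed for 7 of 7 members by Pearson's r, for 6 of 7 with normexp, and for 6 of 7 by Spearman's rho. Dim signal limits Epb42, and Slc4a1 in control.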
